A study of Mus musculus with 12 samples.

Results

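Serum amyloid A was followed through 1 row of the table, the probe Saa1_2, which counts the transcripts of the paralogs Saa1 and Saa2 together, and which is 1 of the 556 genes with a value. It was chosen from its own levels in these mice, so these levels and the differences between the groups are given here as a description, with no test. RNA of the terminal ileum was measured in 12 male C57BL/6 mice at week 7, 3 in each of 4 groups. SPF control mice carried a conventional specific pathogen-free microbiota and received no antibiotic, and SPF PAT mice were colonized in the same way and exposed to tylosin, a macrolide, in a single course in early life. GF control and GF PAT mice were the germ-free counterparts without and with the same tylosin exposure. The 4 groups differ only in colonization and tylosin as far as the labels go, and no genotype or transgene is named for any of them. By the paper's methods, SPF litters were bred from purchased mice and germ-free mice came from the authors' own colony. Colonization and colony of origin therefore cannot be told apart. Dams with their litters were assigned to tylosin or control, and the litter of each mouse is not given. Each mouse keeps its number from the labels. Each value is the log2 of a normalized count from a NanoString panel of immune genes, in which fluorescent reporter probes bound to RNA molecules are counted one by one, so that a difference of 1 is a doubling.

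SAA1 and SAA2 are small lipid-binding proteins that the liver releases in the acute-phase response to infection and injury, and that the epithelium of the distal small intestine also makes. In the ileum, epithelial SAA is known to be induced by attached bacteria, with interleukin 22 from type 3 innate lymphoid cells and T cells acting on epithelial STAT3, and secreted SAA is known to promote the Th17 programme of nearby T cells. The promoters of acute-phase SAA genes are known to respond to C/EBP factors, NF-kB and STAT3.

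The stretches before the starts of the genes are shown because the row joins 2 neighbouring paralogs, whose likeness to each other and to Saa3 can be read from them. The RNA stretch that the probe binds is not shown here. In the RefSeq table of mouse build GRCm38.p6, the family lies on chromosome 7 in the order Saa3, Saa4, the pseudogene Saa-ps, Saa1 and Saa2, with 1 lncRNA between Saa3 and Saa4, and each of Saa1 and Saa2 is listed as an older name of the other. The 250 bases before the start of each gene are printed 5′ to 3′ in the direction of transcription, for Saa1 (minus strand, chr7:46742981-46743230), Saa2 (plus strand, chr7:46751583-46751832) and, for contrast, Saa3 (minus strand, chr7:46715677-46715926), with matches to a C/EBP-type motif in capitals.
Saa1: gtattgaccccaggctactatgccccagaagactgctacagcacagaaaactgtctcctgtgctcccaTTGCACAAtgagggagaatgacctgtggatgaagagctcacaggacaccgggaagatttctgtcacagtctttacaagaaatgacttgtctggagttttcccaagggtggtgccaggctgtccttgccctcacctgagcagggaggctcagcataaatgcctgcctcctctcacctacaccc
Saa2: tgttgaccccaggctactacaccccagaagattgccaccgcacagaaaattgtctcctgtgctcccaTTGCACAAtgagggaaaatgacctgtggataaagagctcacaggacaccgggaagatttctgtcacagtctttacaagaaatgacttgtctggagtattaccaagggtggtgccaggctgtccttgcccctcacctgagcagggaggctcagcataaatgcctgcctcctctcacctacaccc
Saa3: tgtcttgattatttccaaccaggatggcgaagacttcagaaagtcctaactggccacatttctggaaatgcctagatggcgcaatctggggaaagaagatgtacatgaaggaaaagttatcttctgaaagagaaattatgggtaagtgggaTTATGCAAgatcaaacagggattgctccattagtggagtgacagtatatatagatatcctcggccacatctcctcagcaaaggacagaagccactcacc
The Saa1 and Saa2 stretches were identical at 94.8% of the aligned positions, with 11 mismatches and 2 gap positions, whereas Saa1 and Saa3 were identical at 52.2%, which is little more than Saa1 and Saa4 (49.5%). The C/EBP-type motif searched was TTGCNNAA on either strand (TTNNGCAA on the printed strand), which 9.56% of the 32851 promoter stretches of the same length in the table hold. Both Saa1 and Saa2 have the match TTGCACAA, 182 and 183 bases before the start, and Saa3 has TTATGCAA 99 bases before it. The Saa4 stretch, not printed, also has matches, TTGCCAAA 245 and TTGAGCAA 52 bases before its start. The STAT-type motif TTCNNNGAA (in 7.02% of promoters) and the canonical NF-kB consensus (in 7.25%) had no match in the Saa1, Saa2, Saa3 or Saa4 stretch. None of the motifs overlapped another in these stretches, and a match or its absence describes the letters of this window only.

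The total of recovered counts was 806043 to 923395 in SPF control mice and 600308 to 681370 in the other 9 mice. Of 13 genes that mark intestinal epithelium, 11 were on the panel and present in every mouse, with a summed normalized count of 153345 to 186014 in SPF control, 141959 to 224433 in SPF PAT, 144235 to 167329 in GF control and 124216 to 141465 in GF PAT mice. Pigr and Itln1 are in this sum and also on the list of microbe-induced defence genes below. The sum therefore checks the tissue and does not measure its epithelial share. SPF PAT mouse 21 was the lowest of its group for Saa1_2 and for several genes given with it, and each difference is therefore also given as a range over fits that leave out 1 mouse in turn.

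In SPF control mice the log2 normalized count of Saa1_2 was 14.54 in mouse 2, 13.57 in mouse 7 and 14.75 in mouse 8, from raw counts of 28472, 15171 and 33201. In SPF PAT mice it was 8.16 in mouse 21, 10.35 in mouse 26 and 8.98 in mouse 27, from 305, 1108 and 419 counts. GF control mice had 8.15 in mouse 37, 7.81 in mouse 38 and 7.77 in mouse 39, from 280, 186 and 219 counts. All 3 SPF control mice thus stood far above every other mouse, and the 3 GF control mice lay close together. GF PAT mice had 6.71 in mouse 41, 5.95 in mouse 42 and 6.58 in mouse 43, from 112, 62 and 89 counts. The lowest of these, 62, has a 95% exact Poisson interval of 47.5 to 79.5 for counting error alone. The negative controls hold no value, so how far these counts stand above background could not be read.

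**Figure D1:**
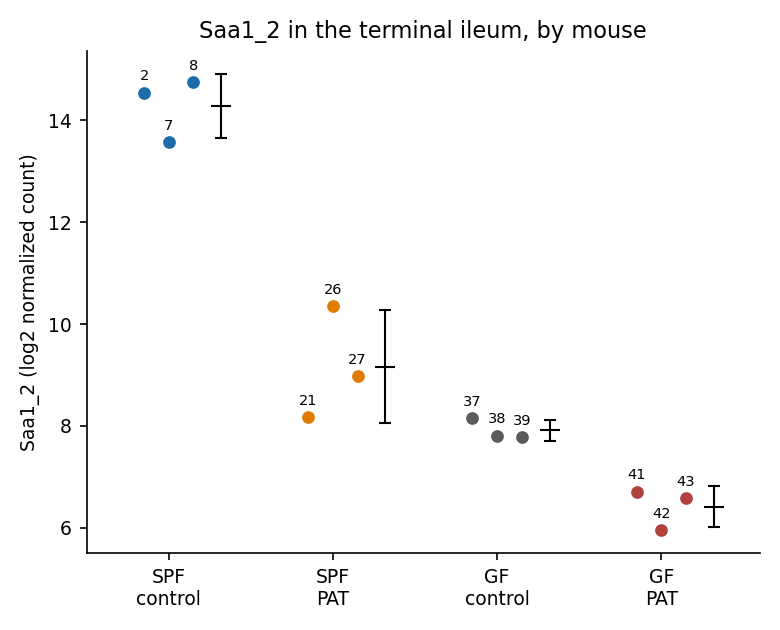
Log2 normalized count of the Saa1_2 probe (y axis) in each of the 12 mice, by group (x axis), with the mouse number above each point and the group mean ± SD (n = 3) as the bar beside the points. The 3 SPF control mice lie at 13.57 to 14.75 and the other 9 mice at 5.95 to 10.35, with SPF PAT mouse 21 (8.16) next to GF control mouse 37 (8.15).

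The group means were 14.29 ± 0.63 in SPF control, 9.16 ± 1.11 in SPF PAT, 7.91 ± 0.21 in GF control and 6.41 ± 0.41 in GF PAT mice (log2, SD, n = 3 each). As normalized counts the means were 21217, 699, 242 and 87.2 in the same order. The spread was widest among the SPF PAT mice, where mouse 26 exceeded mouse 21 by more than 2 on the log2 scale, and narrowest among the GF control mice. In descending order, the SPF control group was followed by SPF PAT, then by GF control and last by GF PAT, and no mouse of one group overlapped a mouse of another. Such complete separation of the 4 groups was found in 4 of the 556 genes (0.719%), which are Saa1_2, Nfil3, Tigit and Tnfsf15.

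Setting SPF control against GF control mice shows Saa1_2 with and without a microbiota in the absence of antibiotic, in mice that also differ in colony of origin. Saa1_2 was higher in SPF control mice by 6.38 (SE 0.51) on the log2 scale, or 83.2-fold, with 5.41 between the lowest SPF control and the highest GF control mouse. It was the largest difference of the 556 genes in absolute size, on a panel where limma called 19.4% of genes higher and 22.7% lower in this comparison (adjusted p under 0.05). Leaving out each mouse in turn gave 6.15 to 6.74.

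Within the SPF mice, Saa1_2 was lower after tylosin by 5.12 (SE 0.51) on the log2 scale, or 34.9-fold, and the highest SPF PAT mouse lay 3.21 below the lowest SPF control mouse. This too was the largest difference of the panel in absolute size. In this comparison 14.0% of genes were called higher and 12.2% lower. The range over fits leaving out 1 mouse was -5.72 to -4.62.

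Within the germ-free mice, Saa1_2 was also lower after tylosin, by 1.50 (SE 0.51) on the log2 scale or 2.83-fold, with 1.07 between the highest GF PAT and the lowest GF control mouse. It stood 18th of the 556 genes by absolute size here. The GF PAT and GF control mice did not overlap in 12.1% of genes, and limma called 0.0% of genes after adjustment, with 28 genes at an unadjusted p under 0.05 and a smallest adjusted p of 0.121. Analysis of variance with Tukey HSD also called 0 genes. The range over fits leaving out 1 mouse was -1.65 to -1.27.

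The tylosin difference of Saa1_2 in SPF mice went beyond that in germ-free mice by -3.62 (SE 0.72) on the log2 scale, with a range of -4.22 to -3.12 over fits leaving out 1 mouse. For this difference of differences, limma called 7.19% of genes below 0 and 9.89% above 0. By absolute size Saa1_2 stood 12th among the 556 genes.

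Of the neighbours in the order of levels, SPF control and SPF PAT mice differed by several times the spread within either group. SPF PAT mice exceeded GF control mice by 1.25 (2.38-fold), which is little above the SD of 1.11 among the SPF PAT mice, and mouse 21 exceeded GF control mouse 37 by only 0.01. This pair of groups did not overlap in 13.8% of genes. The order of those 2 mice turned when the values were scaled differently. After centring each mouse on its median, mouse 21 was at 8.003 and the highest GF control mouse at 8.14, and after quantile normalization they were at 8.05 and 8.24, whereas scaling to the total count without Saa1_2 gave 8.29 and 8.19. The difference of the means exceeded the SD of either group, but the separation of the single mice depended on the scaling. GF control and GF PAT mice kept apart under these scalings, with the lowest GF control mouse at 7.68 or above and the highest GF PAT mouse at 6.84 or below. SPF PAT mice exceeded GF PAT mice by 2.75 (6.75-fold).

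The other members of the family on the panel are Saa3, an acute-phase SAA made by macrophages and epithelium, and Saa4, which is expressed constitutively. Saa3 was at 8.05, 7.43 and 8.01 in SPF control mice 2, 7 and 8, and at 6.25, 7.18 and 5.72 in SPF PAT mice 21, 26 and 27. In GF control mice 37, 38 and 39 it was at 5.80, 5.55 and 5.24, and in GF PAT mice 41, 42 and 43 at 6.03, 5.64 and 6.35. The SPF control mice were again above every other mouse, and the other 3 groups overlapped, with SPF PAT mouse 26 the highest of its group for both probes. Saa3 was higher in SPF control than in GF control mice by 2.29 (SE 0.36, limma adjusted p = 0.0010) and fell by 1.44 in SPF PAT against SPF control mice (adjusted p = 0.0178). The call in SPF PAT mice was lost without SPF control mouse 2 or SPF PAT mouse 27 (limma adjusted p 0.0622 to 0.0685), and also by Tukey HSD, with only the groups compared, by median centring and by quantile normalization (adjusted p 0.0612 to 0.126). In germ-free mice the Saa3 difference was 0.47 (SE 0.36, limma adjusted p = 0.69), a value above 0 where that of Saa1_2 was below 0. Saa4 had only 1 to 10 counts in any mouse, with group means of 1.63 to 1.83 on the log2 scale, so that no change of it was detectable at this depth.

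**Figure D2:**
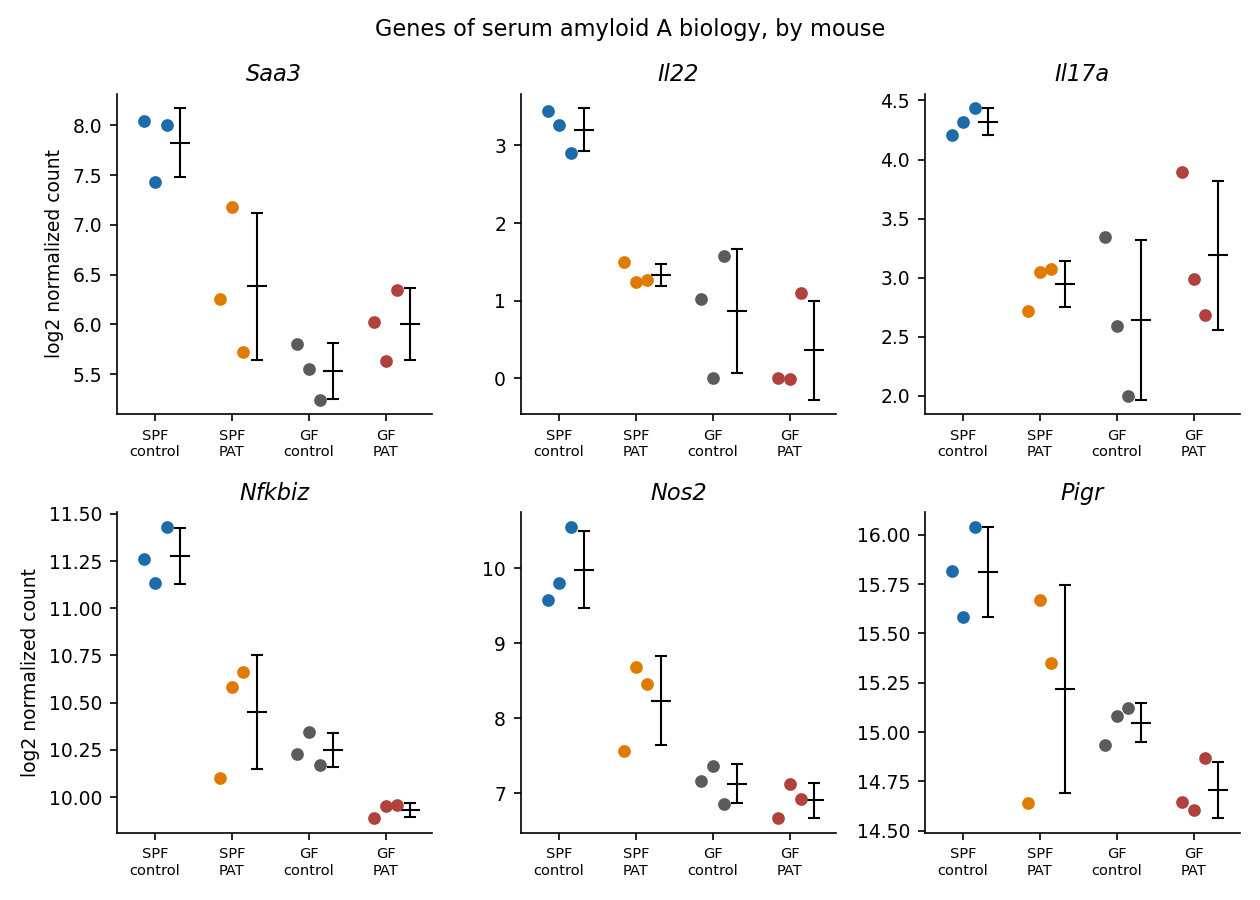
Log2 normalized count (y axes, each with its own range) of Saa3, Il22, Il17a, Nfkbiz, Nos2 and Pigr in each of the 12 mice by group (x axes), with the group mean ± SD (n = 3) beside the points. SPF control mice are the highest group by mean in all 6 panels, and in Pigr SPF PAT mouse 26 (15.67) lies above SPF control mouse 7 (15.58).

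Lists of genes around SAA were read beside the probe. They held 121 genes other than Saa1_2, of which 93 were on the panel. In SPF control against GF control mice, 23 of the 93 were higher and 26 lower by limma, with a median difference of 0.09, and 52.7% past the threshold against 41.98% of the 555 panel genes without Saa1_2, the list genes included. In SPF PAT against SPF control mice, 17 were higher and 20 lower, with a median of 0.00 (39.8% past the threshold against 26.1%). None of the 93 passed between GF PAT and GF control mice, and 1, Irf4, did when GF control mouse 37 was left out (limma adjusted p = 0.0176). The median of all genes was 0.08 in the first of these comparisons and -0.02 in the second. After centring each mouse on its median, these moved to -0.36 and 0.34. The lists were thus divided in direction, and the values below are relative to the scaling of the deposited table. Of the named genes, Saa1_2 aside, 48 passed in the first comparison and 39 in the second, and 32 and 15 of them kept the call under every alternative run. Many genes were named because they passed, so the 48 and 39 follow from that choice and serve only as the base for the calls kept. Tukey HSD lost 11 and 18 of these calls, median centring 11 and 12, and quantile normalization 6 and 8. None of these called differences turned its direction.

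Among the cytokines that induce SAA, 12 of 14 were measured, and 4 rose and 1 fell in SPF control against GF control mice, with a median difference of 0.45. At 41.7%, the share past the threshold was close to the panel's. Il22, the inducer of epithelial SAA, was at 3.45, 3.26 and 2.90 in SPF control mice 2, 7 and 8, from 13, 12 and 9 counts. It was at 1.24 to 1.50 in SPF PAT mice, from 2 or 3 counts, and at 0 to 3 counts in the germ-free mice. The SPF control mice did not overlap the others, although all these counts were low. The difference was 2.34 (SE 0.41, limma adjusted p = 0.0019) against GF control, and Il22 fell by 1.87 in SPF PAT against SPF control mice (adjusted p = 0.0102). The call for this fall was lost by Tukey HSD (adjusted p = 0.0787).

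Il17a, the Th17 cytokine, had 22 to 26 counts in SPF control mice and 4 to 16 in the others. It was 1.68 higher with than without a microbiota in the untreated mice (limma adjusted p = 0.0053) and fell by 1.38 in SPF PAT mice (adjusted p = 0.0217), a call lost without SPF control mouse 2 or 7 or SPF PAT mouse 26 or 27 (adjusted p 0.0536 to 0.0649) and by median centring, quantile normalization or Tukey HSD (up to 0.149). Il18, an epithelial cytokine of the IL-1 family, was 1.30 higher in the SPF control mice (adjusted p = 0.0153, lost by median centring at a difference of 0.86 and by Tukey HSD, with adjusted p 0.106 to 0.145) and differed by -0.16 between SPF PAT and SPF control mice, a difference whose sign turned with median centring. Il1b was higher by 0.86 in SPF control mice (limma adjusted p = 0.0212), lost without SPF control mouse 2 or GF control mouse 37 (adjusted p 0.0595 to 0.0644) and by median centring, quantile normalization or Tukey HSD (adjusted p up to 0.706, difference down to 0.18). Lif, which signals through STAT3 as Il6 does, went the other way, with -1.04 and 0.81 in the same 2 comparisons (adjusted p = 0.0016 and 0.0102). The rise of Lif in SPF PAT mice did not pass by Tukey HSD or with only the groups compared (adjusted p 0.0562 to 0.0651). The remaining inducers named here did not pass. In SPF control against GF control mice, Il6 differed by 0.13, Il23a by 0.09, Tnf by 0.62 and Il17f by 2.32 (limma adjusted p 0.89, 0.88, 0.41 and 0.10), and Il6 and Il23a had at most 12 counts in any mouse and turned sign with median centring.

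Of the receptors of these cytokines, 14 of 18 were measured, with 1 higher and 6 lower in SPF control against GF control mice (median -0.17), and 4 higher and 1 lower in SPF PAT against SPF control mice (median 0.31). These are 7 and 5 of the 14 (35.7% for the latter), against 41.98% and 26.1% of the panel without Saa1_2. The interferon gamma receptor chains Ifngr1 and Ifngr2 were lower in SPF control mice by limma, at -1.01 and -0.85, and higher after tylosin in SPF mice, at 0.75 and 0.69. Il10rb, a chain of the IL-22 receptor, followed at -0.72 and 0.62, and Il6ra, the IL-6 receptor, at -0.78 and 0.61. With only the groups compared, the Il10rb call after tylosin was lost (limma adjusted p = 0.0588), and by Tukey HSD that of Il6ra (adjusted p = 0.0698). The Il6ra call after tylosin was lost without SPF control mouse 2 or 7 or SPF PAT mouse 26 or 27 (limma adjusted p 0.0539 to 0.0605). Il1rap (-0.81) and Il17ra (-0.52), receptor chains for IL-1 and IL-17, were lower in SPF control than in GF control mice, the latter not without SPF control mouse 8 or GF control mouse 38 (adjusted p 0.0523 to 0.0683). Tukey HSD lost the Il1rap call (adjusted p = 0.0659) and also that of Il17ra. With only the groups compared and by the total count without Saa1_2 the Il17ra call was lost too (adjusted p 0.0576 to 0.0678, Tukey HSD included). Il12rb1, shared by the IL-12 and IL-23 receptors, was higher by 0.96 in SPF control mice, and Il18rap, an IL-18 receptor chain, fell by 1.20 in SPF PAT mice, and both calls were lost by median centring (limma adjusted p 0.171 to 0.297 and 0.0671 to 0.211 over the settings that lost them). Il23r differed by 0.39 and -0.15 in the 2 comparisons and did not pass in either, with signs that turned by median centring.

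Of the genes for microbial sensing and for NF-kB and STAT3 signalling, 32 of 36 were measured, and 5 were higher and 14 lower in SPF control against GF control mice (median -0.25), while 8 were higher and 4 lower in SPF PAT against SPF control mice (median 0.23), which is 59.4% and 37.5% of the list past the threshold. The panel without Saa1_2 had 41.98% and 26.1%. Nfkbiz, an IL-17 and IL-1 induced nuclear coactivator of NF-kB, was at 11.26, 11.14 and 11.43 in SPF control mice 2, 7 and 8 and at 10.10, 10.58 and 10.66 in SPF PAT mice 21, 26 and 27. In germ-free mice it was at 10.17 to 10.35 in the controls and 9.89 to 9.96 after tylosin. Its differences were 1.03 and -0.83 (limma adjusted p = 0.0009 and 0.0055), and both calls were lost when each mouse was centred on its median (adjusted p 0.118 and 0.23).

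Socs1, a feedback inhibitor of JAK-STAT signalling, was higher in SPF control mice by 1.03 and fell by 1.08 after tylosin in SPF mice (limma adjusted p = 0.0033 and 0.0055), with both calls likewise lost by median centring (0.108 and 0.0722). The bacterial lipoprotein receptor Tlr1 was higher by 1.09 and the peptidoglycan sensor Nod2 by 0.95 in SPF control mice, and Tlr1 fell by 0.82 in SPF PAT mice. The Tlr1 call in SPF PAT mice was lost without SPF control mouse 2 or 7 or SPF PAT mouse 26 or 27 (limma adjusted p 0.0662 to 0.0902), and the Nod2 call without SPF control mouse 7 or GF control mouse 39 (0.054 to 0.0578). Median centring and Tukey HSD lost both calls as well, and quantile normalization that of Nod2, with adjusted p up to 0.128 and 0.522 and differences down to -0.46 and 0.33. The flagellin receptor Tlr5 (-0.92), the kinases Jak2 (-0.90) and Chuk (-0.84) and the NF-kB subunit Relb (-0.74) were lower in SPF control than in GF control mice. Tlr5 (0.71), Jak2 (0.59) and Relb (0.81) were higher in SPF PAT than in SPF control mice, Tlr5 not without SPF control mouse 2 or SPF PAT mouse 26 (0.0653 to 0.0769) and Jak2 not without SPF control mouse 2 or 7 or SPF PAT mouse 27 (0.0735 to 0.0902). By Tukey HSD and with only the groups compared, these rises of Tlr5 and Jak2 did not pass (adjusted p 0.0763 to 0.0961). Stat3 itself differed by -0.17 and 0.10 and passed in neither comparison, and both signs turned by quantile normalization.

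**Figure D3:**
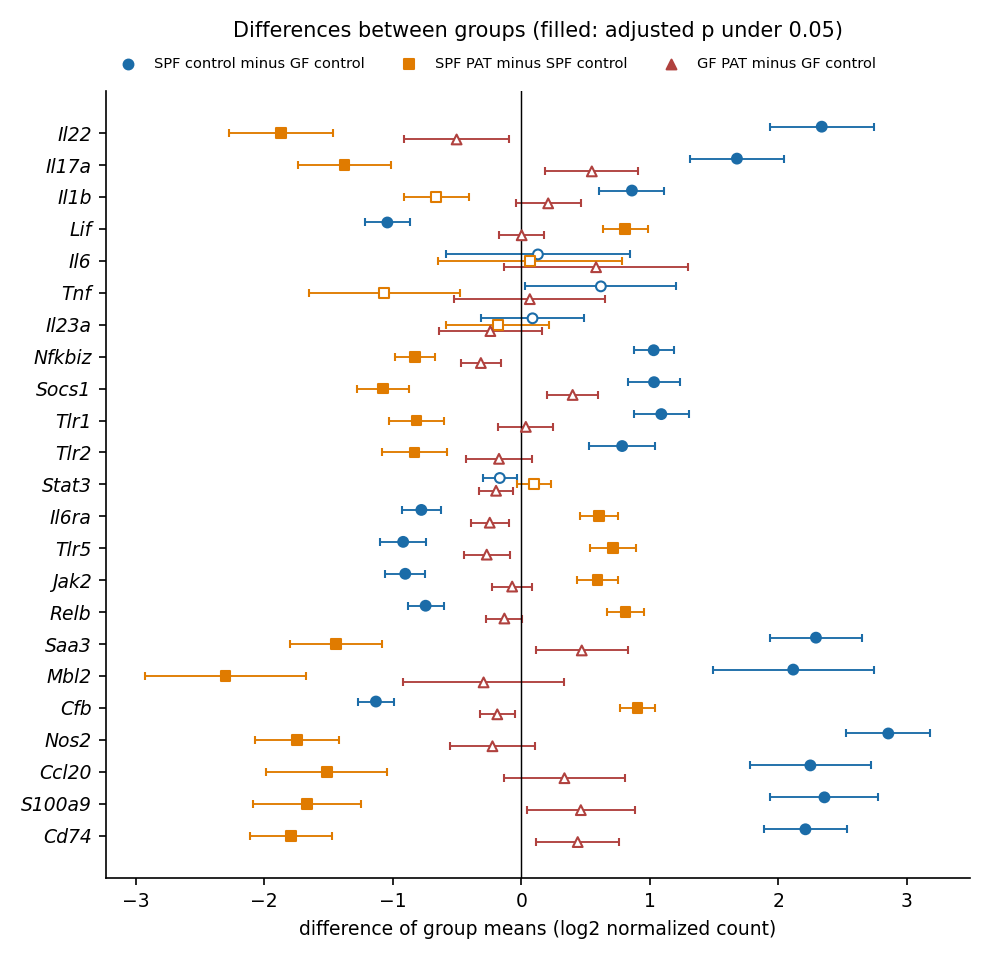
Difference of group means ± SE (x axis, log2 normalized count) for named genes of the SAA lists (y axis) in 3 comparisons, with filled symbols where the limma adjusted p was under 0.05. Saa3, Il22, Nfkbiz and Nos2 lie above 0 for SPF control minus GF control and below 0 for SPF PAT minus SPF control, Il6ra, Tlr5, Jak2, Relb and Cfb lie the other way, and no triangle (GF PAT minus GF control) is filled.

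Of receptors reported for SAA protein, 5 of 9 were measured, and Tlr2 passed in both SPF comparisons. Tlr2 was higher by 0.78 in SPF control than in GF control mice (limma adjusted p = 0.0322) and fell by 0.83 in SPF PAT mice (0.0402). The first of these calls was lost without SPF control mouse 2 or 8 or GF control mouse 37 or 38, and the second without any 1 of 8 mice (SPF control 2 or 8, SPF PAT 21 or 27, GF control 38 or 39, GF PAT 42 or 43), with adjusted p up to 0.0923 and 0.136. Both were also lost by median centring, quantile normalization and Tukey HSD, with adjusted p up to 0.764 and 0.456 and differences down to 0.16 and -0.40. Other acute-phase genes were divided. Of 7 measured family and acute-phase genes, 2 were higher and 2 lower in SPF control against GF control mice. That is 57.1% of them, against 41.98% of the panel without Saa1_2. In SPF PAT against SPF control mice 1 was higher and 2 were lower, or 42.9% against 26.1%. Cfb, complement factor B, was lower by -1.13 (limma adjusted p = 0.0003) and higher by 0.90 in SPF PAT against SPF control mice (0.0026), opposite in direction to Saa1_2. Mbl2, mannose-binding lectin, was higher by 2.12 in SPF control mice and fell by 2.30 in SPF PAT mice on 1 to 25 counts, and leaving out SPF control mouse 2 or 8 or GF control mouse 38 or 39 lost the first call (0.0551 to 0.0666) and any of the SPF control mice or SPF PAT mouse 26 or 27 the second (0.0539 to 0.0936). C9 was lower by -1.11 on 5 to 16 counts, a call lost without any 1 of 7 mice (SPF control 2 or 7, SPF PAT 27, GF control 37, 38 or 39, GF PAT 43; adjusted p up to 0.125). By Tukey HSD neither the Mbl2 calls (adjusted p = 0.148 and 0.166) nor the C9 call (0.22) passed.

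Among Th17 and ILC3 genes, on which secreted SAA is known to act, 17 of 18 were measured, with 5 higher and 2 lower in SPF control against GF control mice (median 0.39) and 2 higher and 5 lower in SPF PAT against SPF control mice (median -0.18). In either comparison 41.2% passed, against 41.98% and 26.1% of the panel without Saa1_2. Beside Il22 and Il17a, Irf4, a transcription factor of Th17 and plasma cells, was higher by 2.44 and fell by 1.22, and Ccl20, the epithelial ligand of Ccr6, was higher by 2.25 and fell by 1.51. The fall of Irf4 did not pass by Tukey HSD (adjusted p = 0.0632). The Ccl20 call in SPF PAT mice (limma adjusted p = 0.0417) was lost without any 1 of 7 mice (SPF control 2 or 7, SPF PAT 26 or 27, GF control 38 or 39, GF PAT 42; adjusted p up to 0.139). Tukey HSD and the total count without Saa1_2 lost it too (adjusted p 0.051 to 0.229). Maf went the other way, at -1.18 and 0.80, and the aryl hydrocarbon receptor Ahr was lower by -0.48 in SPF control mice, not without SPF control mouse 7 or GF control mouse 38 or 39 (0.0517 to 0.0699). The Ahr call was also lost by Tukey HSD and with only the groups compared (adjusted p 0.0532 to 0.0552).

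Of microbe-induced epithelial defence genes, 17 of 24 were measured, with 10 higher and 1 lower in SPF control against GF control mice (median 1.03) and 1 higher and 9 lower in SPF PAT against SPF control mice (median -1.24), or 64.7% and 58.8% past the threshold. The shares of the panel without Saa1_2 were 41.98% and 26.1%. Nos2, the inducible nitric oxide synthase, was at 9.58 to 10.56 in SPF control, 7.56 to 8.69 in SPF PAT, 6.85 to 7.37 in GF control and 6.67 to 7.12 in GF PAT mice, and its differences were 2.85 and -1.75 (limma adjusted p = 0.0003 and 0.0055). Cd74, the MHC class II invariant chain, was higher by 2.21 and fell by 1.79, the fall not passing after quantile normalization (limma adjusted p = 0.112). S100a9, a calprotectin subunit of neutrophils and stressed epithelium, was higher by 2.36 and fell by 1.67 on 4 to 65 counts, the fall not passing without SPF control mouse 2 or SPF PAT mouse 27 (limma adjusted p 0.0632 to 0.0729) or by median centring, quantile normalization or Tukey HSD (up to 0.136). Cx3cl1, an epithelial and endothelial chemokine, was the member that was lower (-0.54) in SPF control and higher (0.51) in SPF PAT mice, the latter not without SPF control mouse 2 or 7 or SPF PAT mouse 26 or 27 (0.0841 to 0.0957). That rise was also lost by Tukey HSD and with only the groups compared (adjusted p 0.0839 to 0.095).

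Some markers of other cells that the tissue could hold were called in the same comparisons. Of the 555 panel genes without Saa1_2, 41.98% were called for SPF control minus GF control, in either direction. The share for SPF PAT minus SPF control was 26.1%. The neutrophil, macrophage and B cell calls below were near or under these shares. In bulk tissue, fewer cells of a type and less RNA per cell cannot be told apart. Of 9 measured T cell markers of 10 listed, 8 were higher in SPF control than in GF control mice and 7 fell in SPF PAT against SPF control mice, and their summed normalized count was 1373 to 2011 in SPF control, 431 to 1197 in SPF PAT, 407 to 842 in GF control and 551 to 962 in GF PAT mice. Of 7 measured neutrophil markers of 10, 3 were higher and then 2 fell, with sums of 113 to 185, 62.5 to 119, 71.1 to 108 and 76.4 to 122. Of 9 measured macrophage markers of 12, 2 were higher and 1 lower in SPF control against GF control mice, with sums of 1901 to 2757 in SPF control and 1554 to 2213 in the other mice. Of the 11 epithelial markers, 1 was higher and 5 lower in SPF control against GF control mice (median -0.49), and 6 were higher and 1 lower in SPF PAT against SPF control mice (median 0.61), so that more of them were called opposite to Saa1_2 than with it, while their sums overlapped between the SPF groups. The part of these cells in the Saa1_2 differences was not tested. All 8 B cell markers were measured, 1 was higher in SPF control than in GF control mice and 1 fell in SPF PAT mice, and their sums overlapped widely, at 1267 to 6736, 859 to 5760, 903 to 3571 and 1980 to 5686. Of 12 measured genes of hepatocyte-typical plasma proteins of 14 listed, Masp2 was at a count of 0 in every mouse, 8 had under 20 counts in every mouse, and the sums were 650 to 1066 in SPF control and 647 to 898 in the other mice. 

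The genes whose pattern over the 12 mice was most like that of Saa1_2 were sought among the 444 other genes with a mean normalized count of 20 or more. The 10 with the highest Pearson correlation were Nfkbiz (r = 0.976), Nos2 (0.959), Irf8 (0.949), Cfi (0.945), Gzmb (0.932), Cxcl9 (0.931), Ccl5 (0.928), Nfil3 (0.926), Tmem173 (0.926) and Psmb9 (0.925). Nfil3, a circadian and epithelial transcription factor, had the same order of all 4 groups as Saa1_2 and a Spearman rho of 0.993, and was at 9.28 to 9.71 in SPF control, 8.59 to 8.91 in SPF PAT, 7.41 to 7.84 in GF control and 6.71 to 7.21 in GF PAT mice. Cfi is a complement inhibitor, Irf8 and Tmem173 act in innate sensing, Gzmb and Ccl5 are made by cytotoxic lymphocytes, and Cxcl9 and Psmb9 are interferon-induced. Saa3 stood 16th (0.894) and Pigr 14th (0.910). At the other end were Abcb1a (-0.950), an efflux transporter of the epithelium, Il15 (-0.939), Tnfsf15 (-0.919), Mme (-0.914), an epithelial peptidase, and Abcf1 (-0.912). These correlations describe 12 mice that fall into separate groups, and every gene of a mouse shares the normalization of its library.

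Within the groups, mice that stood above their group mean for Saa1_2 were compared through the deviations from the group means. The genes with the highest correlation of deviations were Ccl6 (0.880), Pigr (0.848), Pla2g2a (0.808), Ctsc (0.796) and Lair1 (0.784), with Saa3 next (0.780), whereas Nfkbiz had 0.647 and Ccl5 -0.02. Pigr, the receptor that carries IgA across the epithelium, was at 14.64, 15.67 and 15.35 in SPF PAT mice 21, 26 and 27, in the same order as Saa1_2, and at 15.82, 15.58 and 16.04 in SPF control mice 2, 7 and 8, again in the same order. In GF control mice 37, 38 and 39 Pigr was at 14.93, 15.08 and 15.12, the reverse of the Saa1_2 order. In GF PAT mice 41, 42 and 43 it was at 14.64, 14.60 and 14.87, highest in mouse 43, whereas Saa1_2 was highest in mouse 41. Pla2g2a, the antibacterial phospholipase of Paneth cells, was at 9.86, 10.58 and 10.30 in SPF PAT mice 21, 26 and 27. Ccl6 (a chemokine of myeloid cells and epithelium), Ctsc (a lysosomal protease) and Lair1 (an inhibitory leukocyte receptor) did not pass in SPF control against GF control or in SPF PAT against SPF control mice. The SPF PAT mice had the widest spread in Saa1_2 and weigh most in these values.

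**Figure D4:**
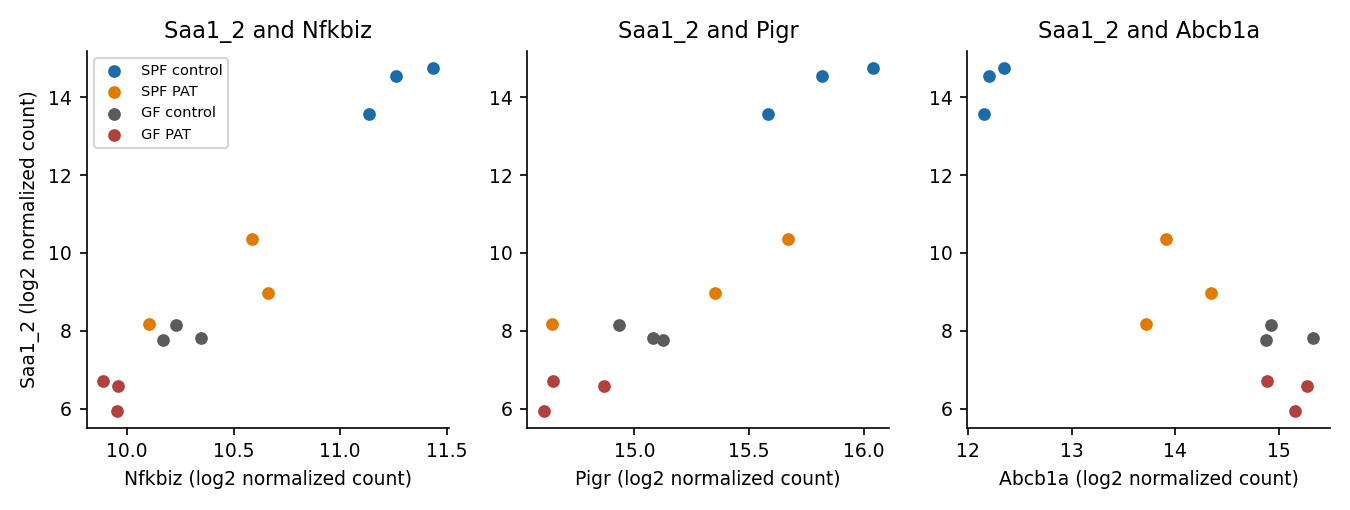
Log2 normalized count of Saa1_2 (y axis) against that of Nfkbiz, Pigr and Abcb1a (x axes) in the 12 mice, coloured by group. Saa1_2 is high where Nfkbiz and Pigr are high and where Abcb1a is low, and the 3 SPF control mice stand apart from the other 9 in Saa1_2.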

How the data were processed

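NanoString's nCounter GX mouse immunology panel was run on ileal RNA of 12 mice. The labels give TRIzol and RNeasy for the extraction and the methods another column kit. The deposited values are log2 normalized counts, which the authors obtained with DESeq2 (per the labels, no version). With 1 size factor per mouse (0.830 to 1.25), 100% of nonzero values gave whole counts within 0.01. A count of 0 was deposited as 0, which equals a normalized count of 1. The 28 entries for 14 reference genes, 8 negative and 6 positive controls hold no value, and no litter or cartridge is given. Pairing by replicate number was not possible because no number is shared between groups.

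From the log2 values, limma 3.58.1 in R 4.3.3 was fitted with 1 mean per group over all 12 mice and 556 genes, and p-values were adjusted by the Benjamini-Hochberg method (threshold 0.05). They measure the spread between these mice, each taken as independent, since litters are not given. The code was also tried on simulated counts with changes placed in SPF PAT mice only, a simpler setting than these data, so the trial does not bear on the results. The methods' analysis of variance with Tukey HSD was an alternative, beside median centring, quantile normalization, the total count without Saa1_2, log2 of the normalized count plus 1, a mean count of at least 20, only the groups compared, Spearman correlation, and leaving out each mouse. Saa1_2 and the gene lists were chosen with earlier results of these data known. Named genes are the 10 most and 5 least correlated with Saa1_2, the 5 most correlated within groups, all list members past the threshold in either SPF comparison (the 4 largest rises and falls in long lists), and preset inducers and receptors. Fpr2 was not measured, Tigit was named after its values were seen, and 1 gene that the rule names is left unreported. Of the symbols, 537 matched a current RefSeq symbol. Alignments and motif searches used Biopython 1.88 on RefSeq sequences of GRCm38.p6.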

Additional observations from a re-analysis of the deposited data

Results flagged for a closer look

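The tylosin difference (PAT minus control) was compared between SPF and germ-free mice for the named genes of the SAA lists, as the SPF difference minus the germ-free one on the log2 scale, tested by limma over all 556 genes. It passed the adjusted threshold for 17 of them. Below 0 were Cd74 (-2.23), Irf4 (-2.15), S100a9 (-2.13), Il17a (-1.92), Saa3 (-1.91), Il18rap (-1.55), Socs1 (-1.48) and Il12rb1 (-1.26). Above 0 were Cfb (1.09), Ifngr1 (0.99), Tlr5 (0.98), Relb (0.94), Maf (0.92), Ifngr2 (0.89), Il6ra (0.85), Cx3cl1 (0.78) and Il10rb (0.73). In each of these genes the germ-free difference was opposite in sign to the SPF one and adds to the value, whereas Saa1_2 fell in both. None of these germ-free differences passed by limma over all 12 mice. For Il12rb1 the SPF difference did not pass either (-0.46, limma adjusted p = 0.137). Not passing were, among others, Nos2 (-1.52, limma adjusted p = 0.0502), Il22 (-1.37, 0.113) and Nfkbiz (-0.51, 0.116). Many of the named genes had been picked for passing in SPF control minus GF control or SPF PAT minus SPF control. The latter is a term of the difference tested here, so the number passing was partly set by the choice of genes. Of the 93 measured list genes, 25.8% passed, against 16.9% of the 555 panel genes without Saa1_2. Leaving out single mice lost the Saa3 call 6 times (without SPF control 2, SPF PAT 27, GF control 38 or 39, or GF PAT 41 or 43), with limma adjusted p of 0.0533 to 0.0816. Cd74, Irf4, Socs1, Cfb and Relb kept the call without any 1 of the 12 mice. The other 11 lost it without 2 to 8 single mice each, SPF PAT mouse 27 always among them, with adjusted p of 0.0507 to 0.0925. Median centring and quantile normalization both lost the calls of Saa3, Il17a, S100a9, Il18rap, Il12rb1 and Socs1, and quantile normalization also those of Cd74 and Ifngr2. The analysis of variance lost that of S100a9 too.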

How the results depend on the processing

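The Saa1_2 differences kept their direction and moved by less than the pooled SD within groups (0.68) under all alternatives run. For a difference between a pair of groups, leaving out a mouse of another group cannot change the value. The row was chosen for its levels, so this steadiness is a description and no test. Leaving out 1 mouse gave 6.15 to 6.74, -5.72 to -4.62, -1.65 to -1.27 and -4.22 to -3.12 on the log2 scale for, in turn, colonization in untreated mice, tylosin in SPF mice, tylosin in germ-free mice and the difference between the tylosin effects. The counts of other genes moved more. In the same order, leaving out 1 mouse gave 169 to 259, 64 to 232, 0 to 1 and 35 to 217 panel genes past the threshold (against 234, 146, 0 and 95), and 38 to 51, 17 to 47, 0 to 1 and 7 to 43 list genes (against 49, 37, 0 and 24). For tylosin in SPF mice, the panel count was 64 and 75 when SPF control mouse 2 or 7 was left out, and 232, 89 and 73 for SPF PAT mouse 21, 26 or 27. For the difference between tylosin effects it was 45 and 51 for SPF control mouse 2 or 7, 217, 50 and 35 for SPF PAT mouse 21, 26 or 27, 47 and 58 for GF control mouse 38 or 39, and 37 and 45 for GF PAT mouse 41 or 42. The single gene called for tylosin in germ-free mice, without GF control mouse 37, was Irf4. Analysis of variance with Tukey HSD called 142 genes for SPF control minus GF control and 55 for SPF PAT minus SPF control, with 14 list genes in the latter. With only the groups compared, SPF PAT minus SPF control gave 76 genes and 23 list genes. Quantile normalization gave 15 list genes for the difference between tylosin effects. Median centring gave 57 higher and 169 lower for SPF control minus GF control (108 and 126 as deposited), 76 and 30 for SPF PAT minus SPF control (78 and 68), and 60 and 19 for the difference between tylosin effects (55 and 40); the cause was not tested. By Spearman correlation, 5 of the 10 genes most like Saa1_2 were shared, and 7 to 10 without 1 mouse. No paired analysis was possible because the groups share no replicate number.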
